A study of Mus musculus with 6 samples.

Results

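The nuclear-encoded transcripts of the mitochondrial respiratory chain and of ATP synthase were taken from aortic arch arrays as every non-control probe whose gene name began with Nduf, Uqcr, Cox4 to Cox8 or Atp5, or was Sdha, Sdhb, Sdhc or Sdhd. The rule, which used names and no measured value, found 136 of the 55681 probes, and these carried 93 of the 34821 names in the files. Of the 93, 81 are subunits and 12 carry a matching name without being one: 7 Ndufaf assembly factors, Atp5s, Atp5sl, the pseudogene Atp5c1-ps, the paralogue Ndufa4l2 and the supercomplex factor Cox7a2l. The comparison took in probes that the scanner software marked as clearly brighter than background on each of the 3 arrays of either group. By that filter 131 member probes of 91 genes were measured, 79 of them subunits: 36 of complex I, 4 of complex II, 8 of complex III, 16 of complex IV and 15 of complex V. Of the genes that were not tested, Cox7b2 and Cox8c, complex IV isoforms known from testis, stayed at background level throughout the arrays.

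Arch RNA of 6 female mice labelled C57BL/6 was hybridised to 1 one-colour array each, 3 mice per group according to the design text. All recipients were Mir21+/+, were given 2 X-ray fractions of 5 Gy within 4 h, and received donor marrow the next day. BM Mir21 KO mice had marrow from Mir21-/- donors and BM Mir21 WT mice had marrow from Mir21+/+ donors. Both groups went on a high-fat diet 3 weeks after irradiation and stayed on it for 12 weeks, so irradiation and diet were common to both and the deletion of Mir21, the gene of the microRNA miR-21, was limited to transplanted cells and their progeny. The arch itself kept the recipient's intact Mir21 in its own cells.

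The respiratory chain lies in the inner mitochondrial membrane. Complex I takes electrons from NADH and complex II from succinate, complex III passes them to cytochrome c, complex IV passes them to oxygen, and complex V makes ATP from the proton gradient that complexes I, III and IV build. All subunits of complex II and most of the others are encoded in the nucleus, the remainder by the mitochondrial genome, and several complex IV subunits exist as a widely expressed isoform and an isoform made mainly in heart, skeletal muscle and brown fat. The aortic arch is bordered by perivascular fat, which in the mouse thorax resembles brown fat and is rich in mitochondria.

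Reference promoters of 66 of the 79 tested subunit genes were matched by symbol, 71 promoters in all, each taken as the 250 bases before the annotated start (RefSeq, GRCm38.p6). The members with the greatest spread between arrays were the muscle and brown-fat isoforms Cox7a1 and Cox8b, and their promoters are printed beside those of the widely expressed partners Cox7a2 and Cox8a, with every CG in capitals. Cox7a1 lies at chr7:30183921-30184170 on the plus strand, and Cox7a2 (chr9:79759854-79760103), Cox8b (chr7:140900447-140900696) and Cox8a (chr19:7217617-7217866) lie on the minus strand. All are written 5′ to 3′ on the strand of the gene.
Cox7a1: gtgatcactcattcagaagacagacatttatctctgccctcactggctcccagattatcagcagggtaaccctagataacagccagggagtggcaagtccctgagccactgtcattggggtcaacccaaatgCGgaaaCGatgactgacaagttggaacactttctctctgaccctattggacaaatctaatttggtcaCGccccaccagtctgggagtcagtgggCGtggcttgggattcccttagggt
Cox7a2: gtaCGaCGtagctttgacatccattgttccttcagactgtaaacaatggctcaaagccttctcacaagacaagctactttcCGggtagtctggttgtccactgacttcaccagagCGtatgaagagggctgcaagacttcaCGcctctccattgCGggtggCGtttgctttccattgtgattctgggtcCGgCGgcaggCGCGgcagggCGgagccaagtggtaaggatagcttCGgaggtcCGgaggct
Cox8b: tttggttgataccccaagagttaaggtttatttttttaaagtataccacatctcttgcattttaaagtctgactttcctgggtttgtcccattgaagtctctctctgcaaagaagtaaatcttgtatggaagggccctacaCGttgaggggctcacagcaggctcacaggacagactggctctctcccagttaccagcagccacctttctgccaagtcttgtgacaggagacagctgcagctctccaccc
Cox8a: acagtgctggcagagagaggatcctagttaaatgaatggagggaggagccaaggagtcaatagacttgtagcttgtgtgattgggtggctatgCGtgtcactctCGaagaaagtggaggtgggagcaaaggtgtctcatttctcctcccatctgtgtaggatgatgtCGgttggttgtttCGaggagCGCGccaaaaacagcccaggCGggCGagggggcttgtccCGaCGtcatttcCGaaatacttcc
The Cox7a1 window held 4 CG pairs against 14 in Cox7a2, and the Cox8b window held 1 against 11 in Cox8a. Over all subunit promoters the median was 14 CG pairs, against 6 over all 32851 promoters of the same length.

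Letters for 4 factors known to act on respiratory genes were searched on both strands, with overlaps between motifs allowed. The NRF1 letters GCGCANGCGC were found in 14 subunit promoters (19.7%), against 3.74% of all promoters. The 14 include overlapping windows of Ndufa5. The ETS letters CCGGAAG, bound by the factor GABP, were found in 12 (16.9%), against 6.91% of all promoters. The estrogen-related receptor letters TCAAGGTCA were found in 1 subunit promoter, that of Atp5g3 (1.41% against 0.387%), and the YY1 letters AAGATGG also in 1 (1.41% against 4.49%). The NRF1 and ETS letters contain CG, of which subunit promoters hold more, and the shares were not adjusted for that. Such matches describe letters in these windows and do not show binding. Sdha, the flavoprotein of complex II, held the NRF1 letters 3 times and is shown as an example with those letters in capitals (chr13:74350241-74350490, minus strand).
Sdha: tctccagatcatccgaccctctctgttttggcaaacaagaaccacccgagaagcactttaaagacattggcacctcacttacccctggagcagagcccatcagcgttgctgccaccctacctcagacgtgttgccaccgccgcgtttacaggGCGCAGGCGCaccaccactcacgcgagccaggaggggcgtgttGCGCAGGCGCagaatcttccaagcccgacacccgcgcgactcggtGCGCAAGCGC

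Values are log2 processed signals minus the 75th percentile of the array, so each tells where a probe stood on its own array and probes are not compared with each other. The arrays had 66.4% to 74.4% of spots marked above background, their 75th percentiles of signal ran from 239 to 407, and 0 spots were saturated. KO array 3 had the lowest share and the lowest percentile. The share was 74.2%, 70.3% and 66.4% on KO arrays 1, 2 and 3, against 74.4%, 71.2% and 73.9% on WT arrays 1, 2 and 3. The arrays with lower shares, KO arrays 2 and 3 and WT array 2, are also those with lower subunit levels below. Whether the share and the subunit levels are linked was not tested. All 6 shared 1 slide and 1 scan. The KO arrays lay in slide row 2 and the WT arrays in row 1, so row and group cannot be told apart. Each of the 10 smooth muscle, 10 endothelial and 10 macrophage markers listed for the arch had a tested probe, as had each of the 10 listed markers of brown adipocytes, white adipocytes, cardiac muscle, skeletal muscle and thymocytes. The Mir21 gene was not among the members and its loss was not checked here.

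Subunit transcripts lay lower on average in KO arches, but the difference was smaller than the spread between mice. Of the 79 tested subunit genes, 75 had a mean below that of WT arches (94.9%, against 46.8% of all tested probes), with a median KO minus WT difference of -0.43 on the log2 scale, against 0.02 over all 38339 tested probes. The test called 0 of the 131 member probes (limma, Benjamini-Hochberg over all tested probes, threshold 0.05), where 0.00261% of all tested probes, 1 in number, were called. At an unadjusted p under 0.05, 2 of the 131 member probes were lower (1.53%, against 4.27% of all tested probes) and 0 were higher (against 4.44%). In whole arches, fewer cells of a type and less RNA per cell cannot be told apart.

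The groups overlapped, since arrays with low subunit levels were found in both. The mean over all 79 subunits, each centred on its 6-array mean, was 0.45, -0.61 and -0.55 on KO arrays 1, 2 and 3, against 0.43, -0.22 and 0.50 on WT arrays 1, 2 and 3. KO array 1 thus stood with WT arrays 1 and 3, and WT array 2 lay between them and KO arrays 2 and 3. KO arrays 2 and 3 were both below every WT array in 63 of the 79 subunit genes (79.7%, against 18.3% of all tested probes). KO array 1 was above WT array 2 in 77 (97.5%, against 50.9%), and 63 showed both features (79.7%, against 10.6%). KO array 2 or 3 was the lowest of the 6 in 74 of the 79 (93.7%, against 36.9%). WT array 2 was the lowest WT array in 75 of the 79 (94.9%, against 32.3%). In 0 of the 79 did all KO arrays lie below all WT arrays, against 6.14% of all tested probes, and in 0 did all lie above, against 7.58%.

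**Figure D1:**
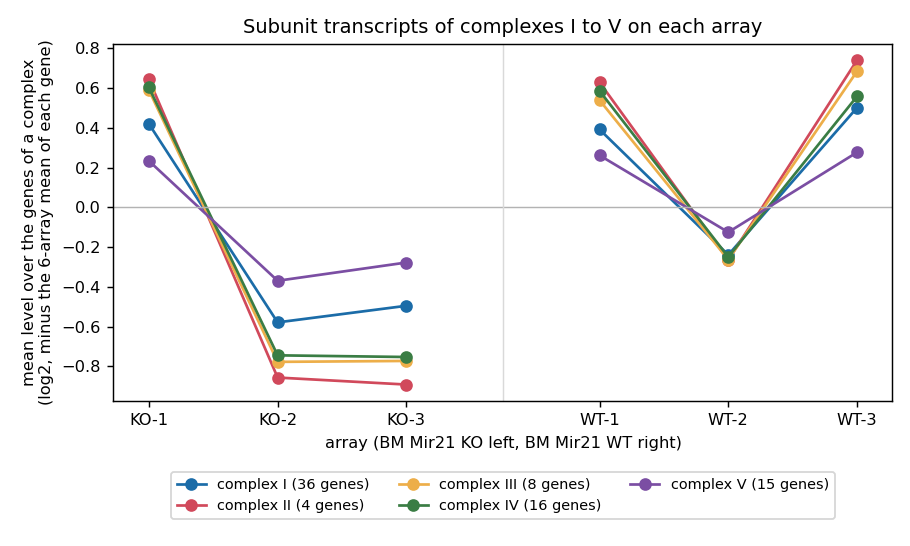
Mean level of the tested subunit genes of each complex on each array, in log2 units after subtracting each gene's 6-array mean, with BM Mir21 KO arrays on the left and BM Mir21 WT arrays on the right. For all subunits together the means were 0.45, -0.61 and -0.55 on the KO arrays and 0.43, -0.22 and 0.50 on the WT arrays, and all 5 complexes are high and low on the same arrays, with complex V the flattest.

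The 5 complexes were high and low on the same arrays and differed in depth. Median KO minus WT differences were -0.40 for complex I, -0.84 for complex II, -0.66 for complex III, -0.46 for complex IV and -0.35 for complex V. The spread of a gene over the 6 arrays, highest minus lowest, had a median of 1.12 in complex I, 1.89 in complex II, 1.35 in complex III, 1.28 in complex IV and 0.95 in complex V, against 0.71 over all tested probes. Complexes II and III thus spread more between mice than complexes I and V, and the differences between complexes were not tested.

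Single arrays moved these medians by more than 1.5 times. Without KO array 1 the median of all subunits was -0.73 and without KO array 2 it was -0.24. Without both KO arrays 2 and 3 it was 0.20, the opposite sign, with medians of 0.18, 0.26, 0.24, 0.32 and 0.10 for complexes I to V. Taken alone, KO array 1 lay above the WT mean in 73 of the 79 subunit genes (92.4%, against 54.2% of all tested probes). Leaving out WT array 2 gave -0.64 for all subunits and -0.55 for complex V.

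Complex I, the NADH dehydrogenase, had 35 of its 36 tested subunit genes below 0, with differences from -0.76 to 0.01 and 0 past the test. Its 7 core subunits, among them those that carry the flavin and the iron-sulfur clusters, had a median of -0.63, and its 29 accessory subunits a median of -0.38. Ndufv1, which binds NADH and the flavin, stood at 6.88, 5.42 and 5.45 on KO arrays 1, 2 and 3, against 6.90, 6.29 and 6.86 on WT arrays 1, 2 and 3. Its KO arches averaged 5.92 ± 0.84 and its WT arches 6.68 ± 0.34 (SD, n = 3 each), a difference of -0.76 ± 0.41 (SE; limma adjusted p = 0.64). The first KO array was within the WT range and the other two were below it.

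Ndufs1, the large iron-sulfur subunit, was at 5.19, 3.79 and 3.60 in KO arches, against 5.09, 4.03 and 5.34 in WT arches, a difference of -0.63 ± 0.49. Ndufb8, an accessory subunit of the membrane arm, was at 6.84, 5.16 and 5.06 in KO arches, against 6.72, 5.61 and 6.95 in WT arches, a difference of -0.74 ± 0.54. In both genes KO array 1 was among the high arrays and WT array 2 among the low ones.

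At the other end of complex I, Ndufa11, an accessory subunit of the membrane arm, read 3.31, 3.12 and 3.11 in KO arches, against 3.20, 2.92 and 3.38 in WT arches, a difference of 0.01 ± 0.18. Ndufa2, an accessory subunit of the arm that holds the iron-sulfur clusters, differed by -0.10 ± 0.19. Between these ends the members ran from Ndufa8 at -0.74 ± 0.33 (limma adjusted p = 0.58) to Ndufc2 at -0.18 ± 0.36. Spreads over the 6 arrays ran from 0.46 in Ndufa11 to 2.06 in Ndufa10.

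All 4 subunits of complex II, succinate dehydrogenase, were below 0 and 0 passed the test. Sdhb, the iron-sulfur subunit, stood at 6.73, 5.00 and 5.08 in KO arches, against 6.74, 5.78 and 6.98 in WT arches (-0.90 ± 0.51, limma adjusted p = 0.65). Sdha, the flavoprotein whose promoter is printed above, stood at 5.66, 3.96 and 4.00 in KO arches, against 5.75, 4.69 and 5.65 in WT arches (-0.82 ± 0.50). The membrane anchors differed in size: Sdhd was at 5.99, 4.02 and 3.76 in KO arches, against 5.78, 4.56 and 6.01 in WT arches (-0.86 ± 0.63), and Sdhc had the smallest spread of the complex, 0.73, with -0.36 ± 0.22. In each of the 4 genes KO arrays 2 and 3 were the lowest arrays.

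Every tested Uqcr gene of complex III, the cytochrome bc1 complex, was below 0, from -1.002 to -0.223, and 0 of 8 passed the test. Uqcrfs1, the Rieske iron-sulfur protein that takes the electron from ubiquinol, stood at 5.47, 3.72 and 3.59 in KO arches, against 5.61, 4.28 and 5.89 in WT arches. The KO arches averaged 4.26 ± 1.05 and the WT arches 5.26 ± 0.86 (SD, n = 3 each), which is 2.00-fold lower in KO arches (-1.002 ± 0.589, limma adjusted p = 0.66). The core protein Uqcrc1 was at 4.88, 3.09 and 2.78 in KO arches, against 4.74, 3.62 and 5.00 in WT arches (-0.87 ± 0.59), and its partner Uqcrc2 differed by -0.80 ± 0.50. The small subunits Uqcrb (-0.34 ± 0.35) and the hinge protein Uqcrh (-0.22 ± 0.30) had the smallest differences. For Uqcrfs1 the value was -1.61 without KO array 1 and -0.67 without KO array 3.

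**Figure D2:**
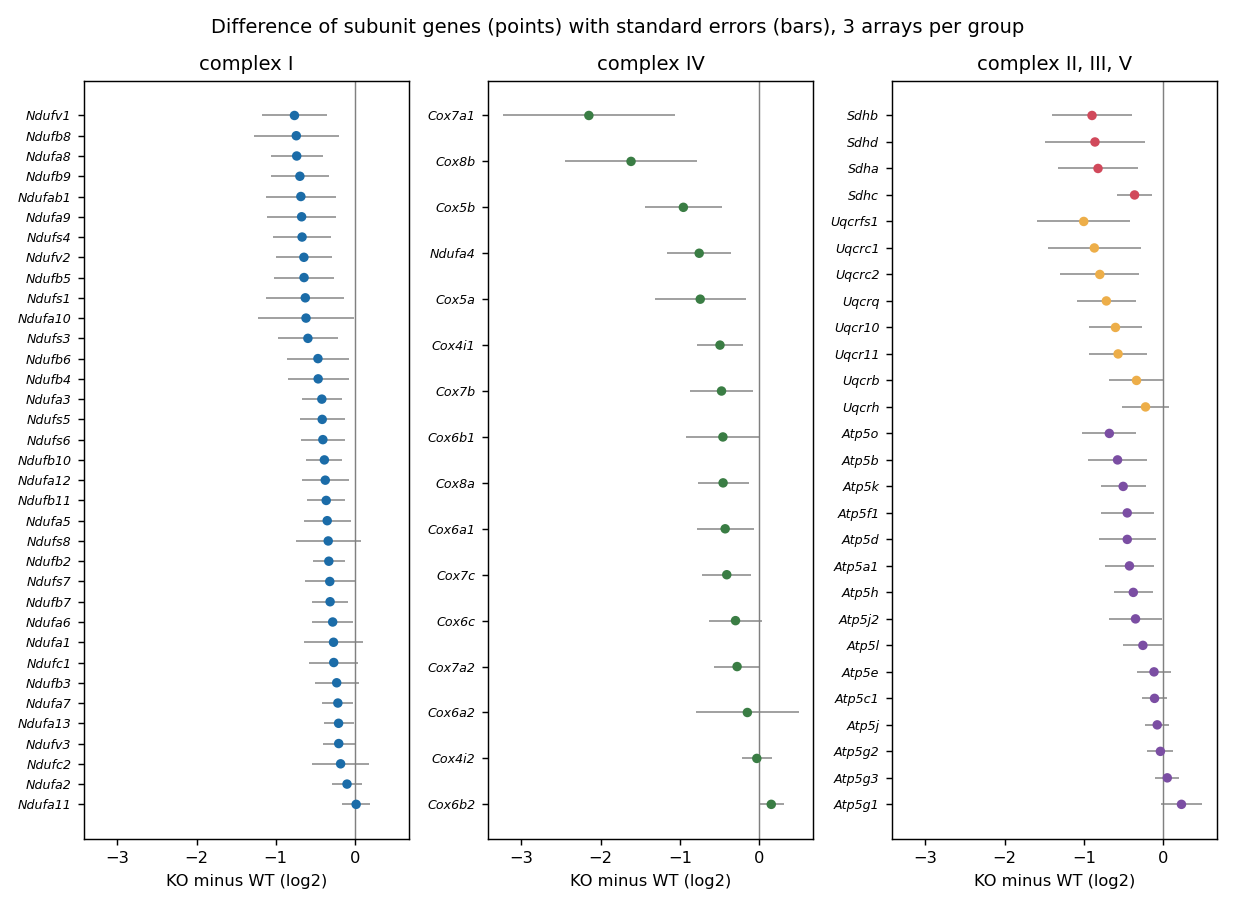
KO minus WT difference of the brightest tested probe of 78 of the 79 tested subunit genes (points, log2 units, horizontal axis) with standard errors (bars), 3 arrays per group, ordered within complexes I, IV and then II, III and V. Differences run from -2.15 for Cox7a1 to 0.23 for Atp5g1, and 74 of the 78 points lie left of 0.

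Complex IV, cytochrome c oxidase, held the members with the widest spread of all. Cox7a1, the isoform of subunit 7a made in heart, muscle and brown fat, stood at 7.27, 3.88 and 2.72 on KO arrays 1, 2 and 3, against 7.32, 5.66 and 7.33 on WT arrays 1, 2 and 3. Its spread of 4.62 was the greatest among the members. KO arches averaged 4.62 ± 2.37 and WT arches 6.77 ± 0.96 (SD, n = 3 each), 4.43-fold lower in KO arches and short of the test (-2.15 ± 1.09, limma adjusted p = 0.62). Without KO array 1 the difference was -3.47, and without KO array 3 it was -1.20. The probe lies between positions 30970337 and 30970948 of chromosome 7 on mm9, according to the scanner files, a stretch longer than the probe.

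Cox8b, the muscle and brown-fat isoform of subunit 8, stood at 7.88, 5.39 and 4.29 in KO arches, against 7.84, 6.70 and 7.86 in WT arches. KO arches averaged 5.85 ± 1.84 and WT arches 7.47 ± 0.66 (SD, n = 3 each), 3.07-fold lower in KO arches (-1.62 ± 0.84, limma adjusted p = 0.63). As in Cox7a1, KO array 3 was the lowest array and KO array 1 was level with WT arrays 1 and 3. Without KO array 1 the difference was -2.63, and without KO array 3 it was -0.83. Its probe lies at 148084852 to 148084911 on chromosome 7 of mm9.

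Cox6a2, the heart and muscle isoform of subunit 6a, did not have this pattern over the arrays. It read 1.55, -0.28 and 1.05 in KO arches, against 2.22, 0.01 and 0.53 in WT arches, a difference of -0.15 ± 0.65 that took the opposite sign, 0.38 and 0.50, without KO array 2 and without WT array 1. The mean over 10 skeletal muscle markers was 0.14, -0.27 and -0.23 in KO arches, against 2.05, -1.44 and -0.25 in WT arches. The mean over 10 cardiac markers was 1.65, -1.21 and 1.01 in KO arches, against -0.76, -0.01 and -0.68 in WT arches. Array by array, Cox6a2 was highest where the skeletal list was highest, on WT array 1, and next highest where the cardiac list was highest, on KO array 1. Their part in the level of Cox6a2 was not tested.

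Among the 11 widely expressed subunits of complex IV all differences were below 0, with a median of -0.46. Cox5b, a zinc-binding subunit on the matrix side, stood at 6.13, 4.88 and 4.41 in KO arches, against 6.41, 5.34 and 6.53 in WT arches (-0.96 ± 0.49, limma adjusted p = 0.62). Cox5a differed by -0.74 ± 0.58, and Ndufa4, which was first counted with complex I and is now placed in complex IV, by -0.76 ± 0.40. Cox4i1, the common form of the largest nuclear-encoded subunit, stood at 7.35, 6.50 and 6.46 in KO arches, against 7.42, 6.86 and 7.51 in WT arches (-0.49 ± 0.29). The tissue-restricted Cox4i2, known from lung, and Cox6b2, known from testis, were flat across the arrays, with spreads of 0.46 and 0.37 and differences of -0.03 ± 0.19 and 0.15 ± 0.16.

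Restricted and common isoforms were set against each other on each array in 6 pairs, and the difference of the pair was compared between groups. Among the pairs, Ndufa4l2 over Ndufa4 sets a paralogue that is not counted as a subunit against a subunit. Cox7a1 relative to Cox7a2, each centred on its own mean, was 1.14, -1.35 and -2.60 in KO arches, against 1.35, 0.21 and 1.25 in WT arches, a shift of -1.87 (exact permutation p = 0.20, 0.45 after Benjamini-Hochberg over the 6 pairs). Cox8b relative to Cox8a was 0.75, -0.72 and -1.77 in KO arches, against 0.83, 0.19 and 0.73 in WT arches, a shift of -1.16 (exact permutation p = 0.30, adjusted 0.45). On KO arrays 2 and 3 the restricted isoform of these pairs lay further below its mean than the common one, while KO array 1 stayed within the WT range. The other 4 pairs shifted by 0.28 for Cox6a2 over Cox6a1, 0.46 for Cox4i2 over Cox4i1, 0.61 for Cox6b2 over Cox6b1 and 0.32 for Ndufa4l2 over Ndufa4, with adjusted p from 0.45 to 0.70 by the exact permutation test. With 3 against 3 arrays the two-sided test cannot go below 0.10, so no pair could have passed. The shift of Cox7a1 over Cox7a2 was -2.91 without KO array 1 and -1.04 without KO array 3, and that of Cox8b over Cox8a was -1.83 without KO array 1 and -0.56 without KO array 3.

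**Figure D3:**
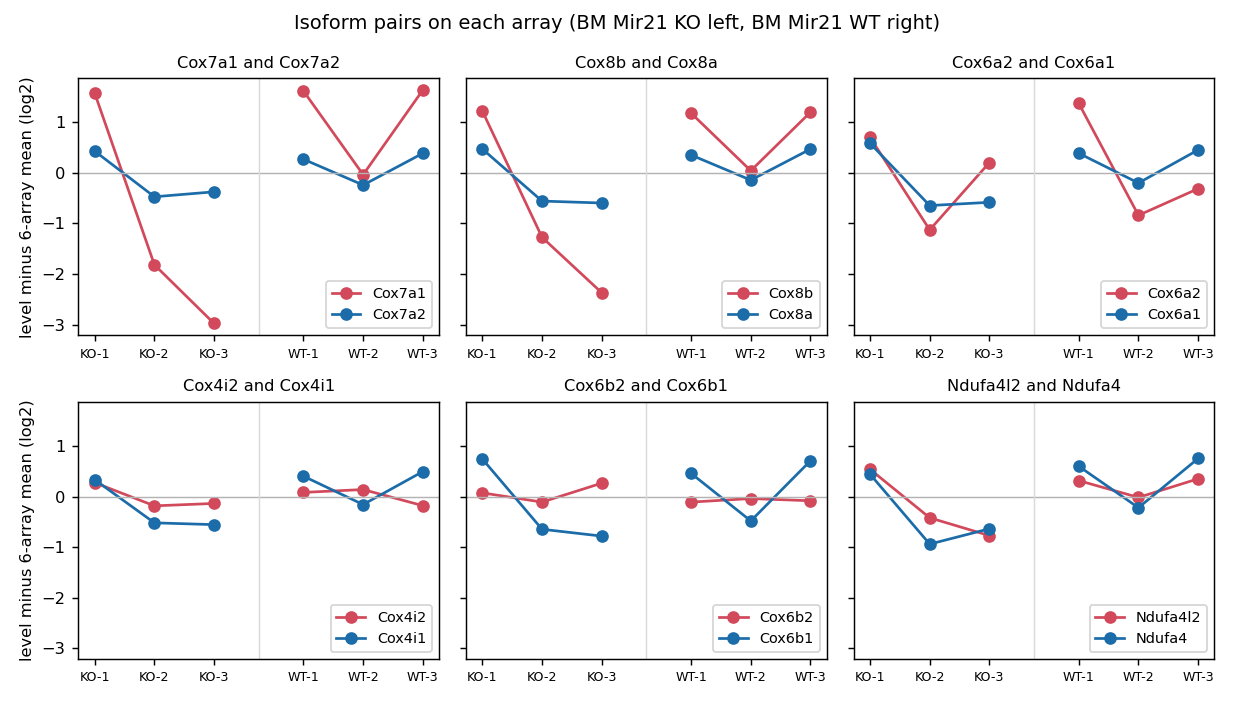
Level of the tissue-restricted isoform (for Ndufa4, the paralogue Ndufa4l2) and of its widely expressed partner on each array, in log2 units after subtracting each gene's 6-array mean, with BM Mir21 KO arrays left and BM Mir21 WT arrays right, 1 panel per pair. Cox7a1 and Cox8b depart furthest from their partners on KO array 3, where the pair differences are -2.60 and -1.77.

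In complex V, ATP synthase, 13 of the 15 tested genes were below 0, from -0.68 to 0.23, and 0 passed the test. The catalytic beta subunit Atp5b stood at 7.93, 6.89 and 6.70 in KO arches, against 7.98, 7.22 and 8.05 in WT arches (-0.58 ± 0.37, limma adjusted p = 0.69). Atp5a1, the alpha subunit, differed by -0.43 ± 0.30. Atp5o, the stalk subunit that confers oligomycin sensitivity, had the lowest difference of the complex, with 4.71, 3.72 and 3.58 in KO arches, against 4.92, 4.22 and 4.90 in WT arches (-0.68 ± 0.34). By role the medians were -0.43 for the 5 F1 subunits, -0.42 for the 4 peripheral stalk subunits and -0.35 for the 3 other membrane subunits.

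The c ring, the rotor in the membrane, is encoded by 3 genes for the same mature protein, and 2 of them, Atp5g1 and Atp5g3, did not share the subunits' pattern over the arrays. Atp5g1 stood at 4.45, 5.16 and 5.39 in KO arches, against 4.69, 4.93 and 4.69 in WT arches, so that KO arrays 2 and 3, the lowest for most subunits, were its highest (0.23 ± 0.26, limma adjusted p = 0.82). Atp5g3 was at 5.82, 5.87 and 6.11 in KO arches, against 5.91, 5.88 and 5.86 in WT arches (0.05 ± 0.15). Atp5g2 read 6.71, 6.40 and 6.67 in KO arches, against 6.65, 6.51 and 6.73 in WT arches (-0.04 ± 0.16), with KO array 2 the lowest array and WT array 2 the lowest WT array, over a small spread. Spreads over the arrays were 0.29 for Atp5g3 and 0.33 for Atp5g2. A dimmer probe of Atp5g1 gave 0.04 ± 0.18, with 3.810, 3.539 and 3.425 in KO arches, against 3.413, 3.5001 and 3.750 in WT arches, and did not have KO arrays 2 and 3 on top. Beside the c ring, the stalk subunit Atp5j had the smallest spread of all tested subunits, 0.27.

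**Figure D4:**
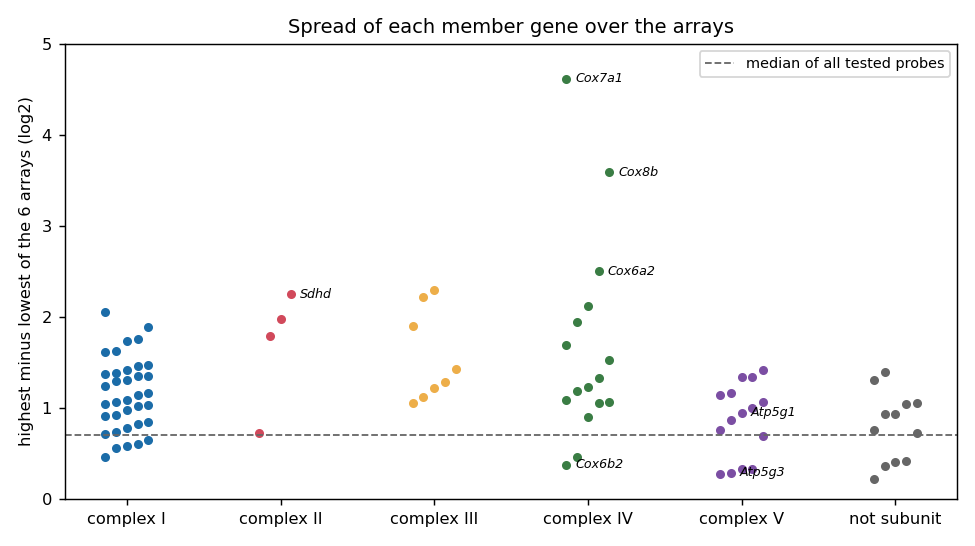
Spread of each tested member gene over the 6 arrays (highest minus lowest, log2 units), by complex, with the dashed line at the median of all tested probes, 0.71. Cox7a1 at 4.62, Cox8b at 3.59 and Cox6a2 at 2.50 stand highest, and the c-ring gene Atp5g3, at 0.29, is among the lowest.

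The 12 genes that share a name pattern but are not subunits had a median difference of -0.17 and a median spread of 0.84. Of the 7 complex I assembly factors 5 were below 0 (46.8% of all tested probes), with a median of -0.13. Ndufaf4 lay lowest at -0.69 ± 0.31 (limma adjusted p = 0.59) and Ndufaf5 highest at 0.30 ± 0.19 (limma adjusted p = 0.68). Atp5sl was the one member gene with an unadjusted p under 0.05 in its brightest probe: it read 2.60, 1.93 and 1.98 in KO arches, against 2.97, 2.53 and 2.85 in WT arches (-0.61 ± 0.23, limma adjusted p = 0.54). It was named after its values were seen. Cox7a2l, the supercomplex factor, had in its brightest probe the smallest spread of the 91 tested genes, 0.22.

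Most genes with several probes had differences of 1 sign. Of the 93 genes, 31 had more than 1 probe and 29 had more than 1 tested, and in 3 of these (Cox7a2l, Cox7c and Ndufb11) the probes differed in sign. Atp5l had 6 tested probes with differences from -0.54 to -0.25. A dim probe of Ndufa3 was the other member probe with an unadjusted p under 0.05 and the only one with all KO arrays below all WT arrays (-0.52 ± 0.21, limma adjusted p = 0.56), while the bright probe of Ndufa3 gave -0.42 ± 0.25. A dimmer probe of Cox7a2l was the only one with all KO arrays above all WT arrays, at 4.11, 4.17 and 4.14 in KO arches, against 3.96, 3.82 and 3.92 in WT arches (0.24 ± 0.14, limma adjusted p = 0.66). The scanner files place some member probes away from the gene, among them the brightest Atp5j2 probe on chromosome 9 and the brightest Atp5l probe on chromosome X of mm9, and signal from other copies was not tested. Other probes of these genes, on chromosome 5 for Atp5j2 and chromosome 9 for Atp5l, gave -0.36 and from -0.54 to -0.25.

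Genes outside the name rule were described from lists. Of 12 genes for cytochrome c, other electron donors of the chain and carriers of nucleotides or phosphate, 10 were below 0 (46.8% of all tested probes), with a median of -0.56. The list holds Cyc1, cytochrome c1, a catalytic subunit of complex III whose name the rule does not match, and it stood at 6.11, 4.41 and 4.19 in KO arches, against 5.94, 4.86 and 6.23 in WT arches (-0.77 ± 0.56, limma adjusted p = 0.72). Cycs, somatic cytochrome c, stood at 6.40, 4.54 and 4.49 in KO arches, against 6.21, 4.88 and 6.50 in WT arches, high and low on the same arrays as the subunits. Etfdh, which feeds electrons from fatty acid oxidation into the chain, differed by -1.05 ± 0.67 and Gpd2, the glycerol phosphate dehydrogenase of the shuttle, by -1.55 ± 0.77. Slc25a4, the muscle form of the ADP/ATP carrier, was one of the exceptions at 0.17 ± 0.19.

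Of 38 assembly factors and inhibitors 31 were below 0 with a median of -0.23, and of 76 genes of the mitochondrial ribosome 68 were below 0 with a median of -0.20. Over all tested probes 46.8% were below 0. Lyrm7, one of the 31, read below the lowest signal marked above background on every KO array. Atpaf1, also one of the 31, did so on KO arrays 2 and 3. Among 14 transcription factors and coactivators 12 were below 0, with a median of -0.24. Ppargc1a, a coactivator of mitochondrial genes, stood at 2.592, -0.613 and -0.998 in KO arches, against 1.158, 1.108 and 0.633 in WT arches, and Esrra, its nuclear receptor partner, at 3.77, 2.66 and 2.36 in KO arches, against 4.06, 3.41 and 4.10 in WT arches. Nrf1, whose letters 14 of the 71 subunit promoters held, differed by -0.01 ± 0.17. The test called 0 genes in either direction in each of these lists (limma, as above).

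As a list, subunits encoded by the mitochondrial genome did not share the pattern of the nuclear-encoded ones, though some single genes showed part of it. All 13 had a tested probe, 6 below 0 and 7 above 0 (46.8% of all tested probes were below 0), with a median of 0.02. Their mean was 0.31, -0.34 and 0.06 in KO arches, against 0.02, 0.02 and -0.06 in WT arches, so WT array 2 was not low and KO array 3 was not low. COX1, the catalytic subunit of complex IV, read 9.71, 9.24 and 9.67 in KO arches, against 9.48, 9.56 and 9.46 in WT arches (0.04 ± 0.18). In ND1, ND2, ND4L, ND5 and CYTB, KO arrays 2 and 3 were both below every WT array, and in the others they were not. Of all tested probes 18.3% had both below every WT array. ND1 read 6.67, 5.28 and 5.39 in KO arches, against 5.76, 5.73 and 5.87 in WT arches (-0.01 ± 0.36). The files place 7 of the 13 probes on the mitochondrial chromosome and 6 on chromosome 1 of mm9.

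**Figure D5:**
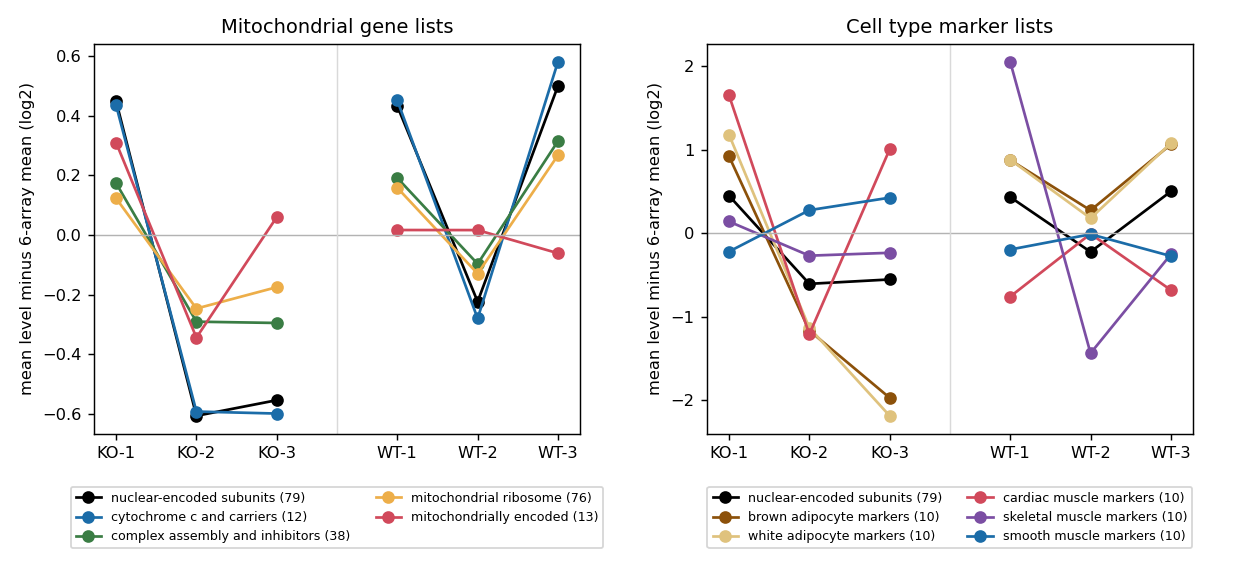
Mean level of gene lists on each array, in log2 units after subtracting each gene's 6-array mean, with BM Mir21 KO arrays left and BM Mir21 WT arrays right; the left panel shows mitochondrial gene lists and the right panel cell type markers, each beside the 79 nuclear-encoded subunits. The brown adipocyte list, at 0.92, -1.17 and -1.97 on the KO arrays and 0.88, 0.27 and 1.06 on the WT arrays, has KO arrays 2 and 3 lowest. The endothelial and thymocyte lists, which are not drawn, have the same 2 arrays lowest, the thymocyte list in part through probes at background level there.

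As list means, adipocyte markers were lowest on KO arrays 2 and 3, with WT array 2 the lowest WT array, as in the subunits. Unlike in the subunits, WT array 2 lay above the 6-array mean and KO array 3 was below KO array 2. The mean over 10 brown adipocyte markers was 0.92, -1.17 and -1.97 in KO arches, against 0.88, 0.27 and 1.06 in WT arches, and that over 10 white adipocyte markers was 1.18, -1.13 and -2.19 in KO arches, against 0.88, 0.18 and 1.08 in WT arches. In each list 9 of 10 genes were below 0 (46.8% of all tested probes), with medians of -1.61 and -1.52, and 0 passed the test. Ucp1, the uncoupling protein that defines brown fat, stood at 7.960, 5.006 and 3.225 in KO arches, against 7.868, 7.222 and 8.001 in WT arches, and Cidea at 8.62, 5.87 and 4.64 in KO arches, against 8.40, 7.37 and 8.43 in WT arches. Dio2 and Lep were the genes above 0, at 0.13 ± 0.42 and 0.60 ± 0.26, and Lep was highest on KO arrays 2 and 3. Prdm16, counted below 0, read 1.68, 1.95 and 2.47 in KO arches, against 2.12, 2.96 and 2.46 in WT arches. No listed adipocyte marker lacked a tested probe, and the part of adipose tissue in the subunit levels was not tested.

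List means of endothelial and thymocyte markers were also lowest on KO arrays 2 and 3, those of thymocytes in part at background level. The mean over 10 endothelial markers was 0.14, -0.12 and -0.46 in KO arches, against 0.18, 0.19 and 0.07 in WT arches, and that over 10 thymocyte markers was 0.33, -0.84 and -0.28 in KO arches, against 0.22, 0.34 and 0.23 in WT arches. The thymocyte markers Rag1, Rag2 and Ptcra read below the lowest signal marked above background on KO arrays 2 and 3 (-4.94 and -4.51). Themis did so on KO array 3. All of these markers entered the comparison through the WT arrays alone, so the thymocyte mean draws partly on background on KO arrays 2 and 3. In the endothelial and the thymocyte list alike, 8 of 10 genes were below 0 (46.8% of all tested probes) and 2 above 0. Single markers differed: Kdr and Cd4 were highest on KO array 3, Vwf lowest on KO array 1 and Cldn5 lowest on WT array 1. In neither list was WT array 2 the lowest WT array, unlike in the subunits. Smooth muscle markers were highest on KO arrays 2 and 3, with -0.22, 0.28 and 0.43 in KO arches, against -0.20, -0.01 and -0.27 in WT arches. Macrophage markers, which cover recipients' and marrow-derived cells alike, averaged 0.03, 0.90 and -0.50 in KO arches, against 0.20, -0.51 and -0.12 in WT arches. The part of these cell types in the subunit levels was not tested.

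The genes most like the subunits' mean profile were sought among 17448 other genes by Euclidean distance over the 6 arrays after centring. Among the 5 nearest were Mlycd (malonyl-CoA decarboxylase) at 0.09, Bri3bp at 0.11, Ecsit at 0.14 and Arhgef28 at 0.15. Mlycd, centred, read 0.43, -0.66 and -0.49 in KO arches, against 0.45, -0.22 and 0.50 in WT arches, beside subunit means of 0.45, -0.61 and -0.55 in KO arches and 0.43, -0.22 and 0.50 in WT arches. Ecsit is an assembly factor of complex I and stood on the list above. None of the 5 passed the test (limma adjusted p from 0.69 to 0.73). They were chosen for a profile in which the groups overlapped, so this outcome follows from the choice.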

How the data were processed

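One-colour arrays of 6 arches were scanned and read by the authors; per the file headers the software was Feature Extraction 10.7.3.1 of Agilent. The deposited processed signals are linear intensity values, background-subtracted but not normalized between arrays, per the file headers. Flags for outliers and for brightness above background are the software's own, as deposited by the authors. The deposited series table holds the same intensity rounded to 3 significant digits. Probe positions on mm9 come from the scanner files.

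From these, log2 signals were computed relative to the 75th percentile of the array's non-control spots, leaving out outlier spots and averaging the spots of a probe. The 38339 probes flagged above background throughout either group's 3 arrays were tested in R 4.3.3 with limma 3.58.1 (lmFit, then eBayes). Tests were two-sided, adjusted by Benjamini-Hochberg over all these probes, with a threshold of 0.05. A gene is shown by its brightest tested probe. Pair differences used an exact permutation test (scipy 1.17.1). The limma p-values set a difference against the spread between the 3 mice of each group, with variances moderated over all tested probes. The number of arrays limits precision.

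Genes were named by rule: in each complex the lowest and highest differences, the isoform pairs, core subunits, the extreme assembly factors and members not above background. Other genes were named after their values were seen. Some genes within the rule are not reported here. Members and lists were chosen with earlier results of these data known. Gene symbols are the files' own; 123 of 136 member probes had an accession in the RefSeq table (GRCm38.p6), 119 with the same symbol. Exon and untranslated region positions of probes were not analysed here. Same-numbered KO and WT arrays had correlated deviations of 0.12, 0.05 and -0.28, so the numbers were not taken as pairs.

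Alternatives were normexp with quantile normalization, quantile normalization alone, median centring, other filters on dim probes, the authors' table, a replicate block, trended robust variance, array weights, leaving out each array and KO arrays 2 and 3 together, and the mean of a gene's probes.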

Additional observations from a re-analysis of the deposited data

How the results depend on the processing

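The test called 0 member probes under all 16 alternatives. At an unadjusted p under 0.05 the member count was 2 of 131 as reported (8.71% of all tested probes), 86 with array weights (18.7%), 78 without KO array 1 (17.9%), 17 with the replicate number as a block (7.93%) and 14 of 132 without WT array 2 (9.42%), and it was 3 or fewer under the other 12. The cause was not tested, beyond the arrays left out. Without KO arrays 2 and 3, medians turned to 0.18, 0.26, 0.24, 0.32 and 0.10 for complexes I to V and 0.20 for all subunits, from 1 KO array assumed to vary like the WT arrays. Leaving out 1 array at a time, medians ran from -0.67 to -0.22 in complex I, -1.42 to -0.50 in complex II, -1.06 to -0.44 in complex III, -0.82 to -0.24 in complex IV, -0.58 to -0.13 in complex V and -0.73 to -0.24 over all subunits. With array weights Ndufa11 was at -0.10. Over the same left-out arrays Ndufa11 ran from -0.11 to 0.12, Cox4i2 from -0.17 to 0.055, Cox6a2 from -0.61 to 0.50, Ndufa2 from -0.25 to 0.044, Atp5g3 from -0.036 to 0.11 and the pair Cox6a2 over Cox6a1 from -0.043 to 0.84. The replicate block left every median as it was, -0.43 over all subunits, and changed no call; the numbers share no more than a label. Under the alternatives run for each, 514 values of named genes kept their direction and 11 turned, and 146 values of medians, pairs and member counts kept it and 8 turned. The fit without KO arrays 2 and 3 was not run for single genes or pairs.

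Precision is limited by 3 arrays per group, by the layout on 1 slide with each group in a row of its own, and for dim probes by their distance from background. Levels are relative to each array's 75th percentile, so a shift shared by all transcripts would not be seen. The median over all tested probes stayed between 0.00 and 0.07 under every alternative.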
